A study of Mus musculus with 8 samples.

Results

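Lipid droplet coat and fusion proteins were taken as 10 genes named by symbol, namely Plin2, Plin3, Plin4 and Plin5, which encode perilipins, Cidea, Cideb and Cidec, which encode the CIDE proteins, and G0s2, Pnpla2 and Hilpda, which encode an inhibitor of lipolysis, the lipase itself and a further inhibitor. All 10 were among the 17810 genes with a row in the liver count table, and all 10 passed the filter on low counts. The RNA-Seq libraries came from whole livers of male mice aged 5 months fed CD-HFD, a diet rich in fat and without choline, for 3 months from the age of 8 weeks, the stage of simple steatosis (MASL). The 4 WT livers came from littermates, and the 4 HKO livers came from mice with a floxed miR-33 gene crossed to a Cre driven by the albumin promoter, which acts in hepatocytes, while its effect on miR-33 in other liver cells such as cholangiocytes was not measured here. The sources used here do not say whether the WT littermates carried floxed alleles, and both genotypes received the CD-HFD, so no liver on a standard diet enters any comparison. The comparison of HKO with WT asks how these transcripts differed when hepatocytes lacked miR-33 on this diet.

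A lipid droplet is a store of triglyceride and cholesteryl ester under a single layer of phospholipid, and hepatocytes fill with droplets in steatosis. Perilipins coat that surface and limit the access of lipases, whereas CIDE proteins gather where droplets touch and pass lipid from the smaller to the larger one. Triglyceride is first cut by the lipase ATGL, the product of Pnpla2, which G0S2 and HILPDA inhibit, and several of these genes are textbook targets of the nuclear receptors PPARα and PPARγ.

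The deleted microRNA is shown first, because target sites are read against its seed. The mature mouse strand from RefSeq (GRCm38.p6, chr15:82198127-82198147, plus strand, within the gene Srebf2) is printed with its seed, bases 2 to 8, in capitals.
miR-33-5p: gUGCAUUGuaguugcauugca
A 7-base match to this seed (CAATGCA, or AATGCAA for bases 2 to 7 followed by an A) was present in the longest annotated 3′UTR of 1 of the 10 genes, against 1871 of 11602 tested genes with a 3′UTR, or 16.1%. That gene was Hilpda, with the match at base 516 of the 546 bases of the 3′UTR (chr6:29275416-29275422, plus strand), shown here in capitals with the bases around it.
Hilpda site: tgaatttttctAATGCAAtaaatgtgaat
A match is only a run of letters, and none of the 10 held the 8-base form (CAATGCAA), which 2.09% of the 11602 genes held.

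The libraries held 12174339 to 18735785 estimated counts, so the 3 counts taken as the detection floor were worth 0.149 to 0.255 CPM (counts relative to the scaled library size), and the first principal component, 36.2% of the variance, separated the genotypes. Of 12395 genes tested, 426 were lower and 212 higher in HKO livers at an adjusted p under 0.05, and the median log2 fold change over all of them was 0.01. The miR-33 gene itself was not analysed here, so genotype rests on the labels. The S numbers in the library labels split by genotype. What they stand for is not stated, and anything they track cannot be told apart from genotype. Of 8 hepatocyte markers, 4 were higher in HKO livers (Cps1, Serpina1c, Tat and Hnf4a), against 1.71% of all tested genes. Alb, which encodes albumin, differed by -0.03 on the log2 scale. With 1 liver left out, Cps1 and Tat were called in 8 of 8 fits, Serpina1c in 3 of 8 (without WT replicate 4, HKO replicate 1 or HKO replicate 2, otherwise edgeR adjusted p up to 0.064) and Hnf4a in 1 of 8 (without HKO replicate 3, otherwise up to 0.135).

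The HKO livers were not alike in markers of other cells. Adipoq, which encodes adiponectin, stood at 1.42 CPM in HKO replicate 1 and at 0.23 CPM or less in every other liver, and Lep, which encodes leptin, at 2.09 CPM in HKO replicate 1, 0.39 CPM in HKO replicate 2 and 0 in the other 6. The adipocyte coat gene Plin1 and the brown fat gene Ucp1 had no row, and the 6 listed adipocyte markers summed to 3.23 to 7.89 CPM in WT and 4.68 to 6.95 CPM in HKO livers. That sum was highest in WT replicate 2, not in HKO replicate 1. Of the 2 tested, Cfd was lower in HKO livers (log2 fold change -3.23 to -2.27 with 1 liver left out, called in 0 of 8 fits). Adrb3 was higher (0.84 to 1.42, called in 1 of 8). Krt19 and Epcam, both cholangiocyte markers, reached 16.9 and 16.5 CPM in HKO replicate 2 and at most 1.08 CPM in the rest. Macrophage markers summed to 102 to 209 CPM in WT and 74.8 to 196 CPM in HKO livers. Of 9 tested, 1 was lower in HKO (Gpnmb), against 3.44% of all tested genes. At an unadjusted p under 0.05 (edgeR) 2 were lower, and DESeq2 called 2 lower and limma-voom 1. Of the tested stellate cell (8), endothelial (6), cholangiocyte (3) and adipocyte (2) markers, edgeR called 0, with 1, 0, 0 and 2 at an unadjusted p under 0.05, and 1, 0, 0 and 1 called by DESeq2. The part of these markers in the results was not tested, and values without HKO replicates 1 and 2 are given where they matter.

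**Figure D1:**
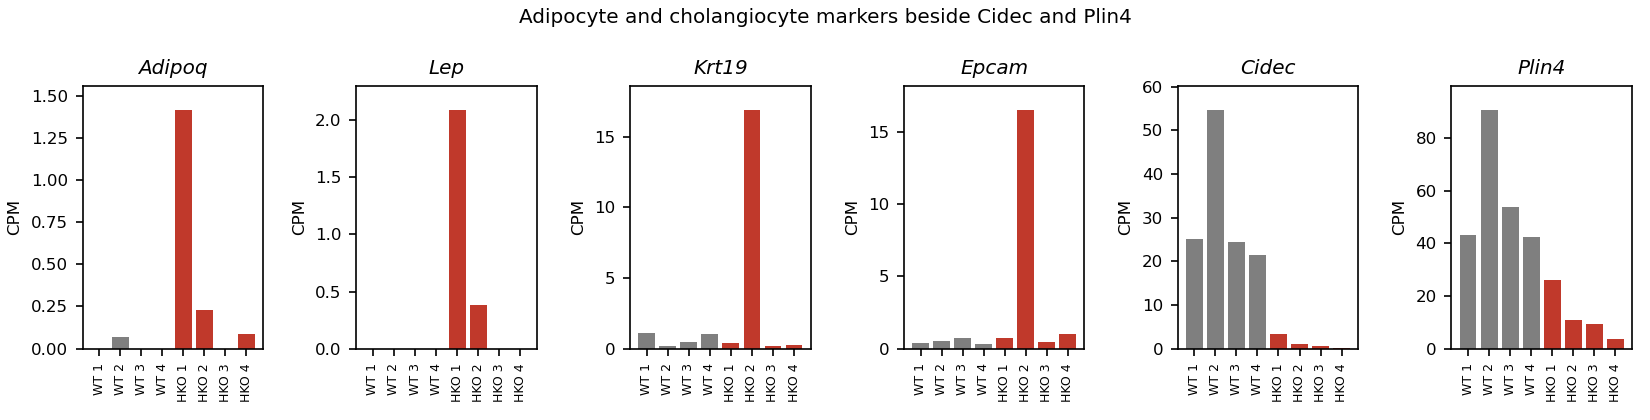
Level in CPM (vertical axes, each from 0) of 2 adipocyte markers (Adipoq, Lep), 2 cholangiocyte markers (Krt19, Epcam), Cidec and Plin4 in each of the 8 livers, with WT in grey and HKO in red. Adipoq and Lep, 2 of the 6 listed adipocyte markers, peak in HKO replicate 1, which also has the highest Cidec and Plin4 among HKO livers (3.24 and 26.1 CPM). The sum of the 6 peaks in WT replicate 2 instead (7.89 CPM, against 6.95 CPM in HKO replicate 1). The 2 cholangiocyte markers peak in HKO replicate 2.

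The droplet genes were lower in HKO livers or did not pass the test, and no member was higher. With edgeR's quasi-likelihood test and Benjamini-Hochberg adjustment over all genes, 5 of the 10 genes were lower (Plin2, Plin3, Cidea, Cidec and G0s2), against 3.44% of all tested genes. The number called higher was 0, against 1.71% of all tested genes, with 0 higher at an unadjusted p under 0.05 and 0 by DESeq2 or limma-voom. DESeq2 called 6 lower (background 5.09%) and limma-voom 4 (background 3.25%). For 6 genes, the 5 called and Plin4, every HKO liver lay below every WT liver, which held for 7.19% of all tested genes. Cidea passed the low-count filter only through the WT livers, since no HKO liver held more than 1 count. Its call and its lack of overlap were thus nearly fixed by the filter and add no support. Cidec, too, passed the filter only through the WT livers. The Cidec call and lack of overlap are therefore given as description, not as support. A filter of 10 counts in every liver removed Cidea and Cidec, and 3 members were then lower. All 10 fitted differences were below 0, with a median of -0.77 on the log2 scale. With 1 liver left out, 2 to 5 of the 10 were called lower, the fewest without HKO replicate 2 or HKO replicate 4 (2 each) and 3 without WT replicate 2, WT replicate 4 or HKO replicate 3. In whole liver, fewer cells of a type and less RNA per cell cannot be told apart. Without HKO replicates 1 and 2, which leaves 2 HKO livers, 2 of the 10 stayed below the threshold (Plin2 and Cidec).

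**Figure D2:**
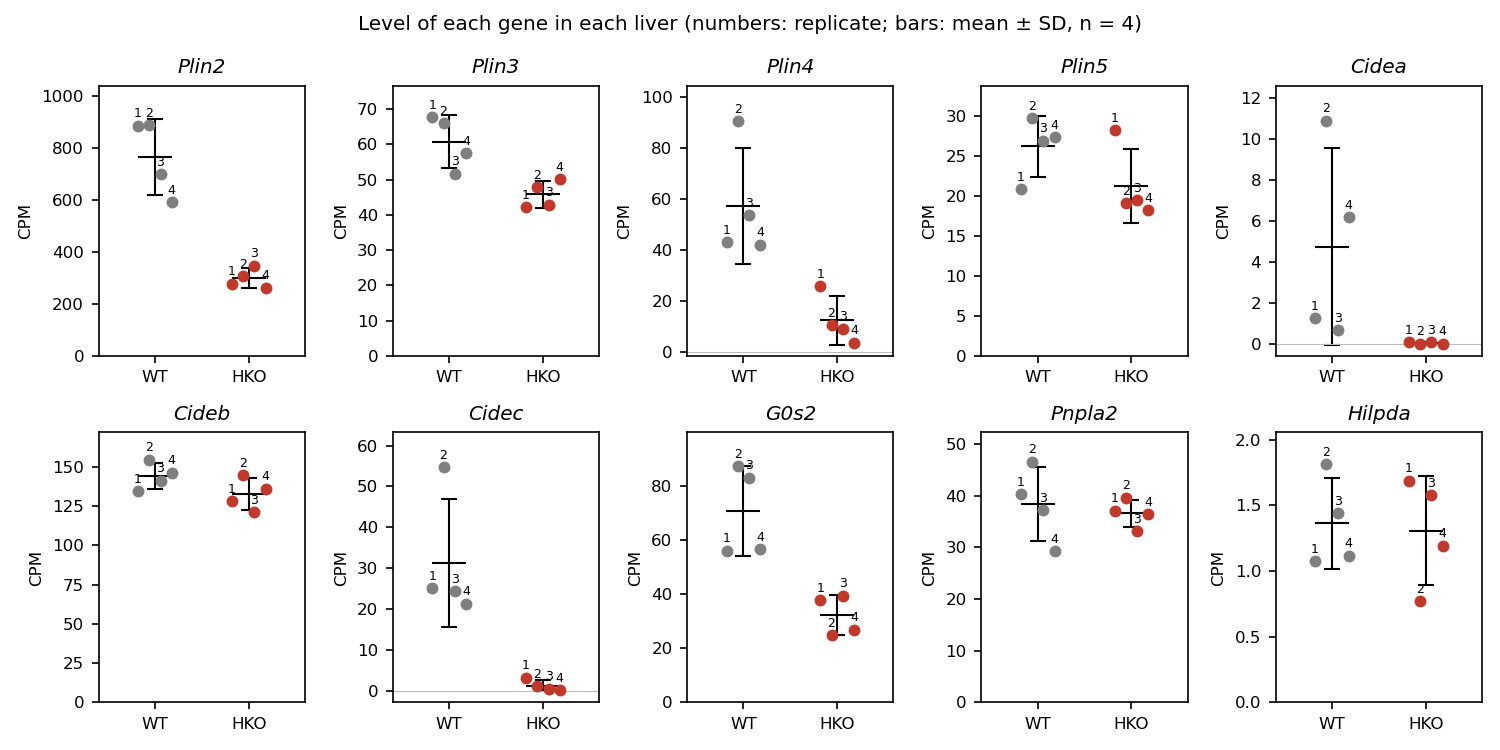
Level of each of the 10 genes in CPM (vertical axes from 0, different for each gene) in 4 WT (grey) and 4 HKO (red) livers, with the replicate number above each point and the mean ± SD as bars. The genotypes do not overlap for Plin2, Plin3, Plin4, Cidea, Cidec and G0s2, and do overlap for Plin5, Cideb, Pnpla2 and Hilpda.

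Plin2 encodes the main perilipin of the fatty hepatocyte, and it was the most abundant of the perilipin transcripts. Its level was 887, 889, 700 and 592 CPM in WT replicates 1 to 4 and 279, 309, 348 and 263 CPM in HKO replicates 1 to 4. The lowest WT liver was well above the highest HKO liver, so the genotypes did not overlap. The means were 767 ± 147 CPM in WT and 299.6 ± 37.5 CPM in HKO (SD, n = 4 each), a level 2.56-fold lower, and the log2 fold change was -1.36 (SE 0.14, 95% interval -1.67 to -1.05, edgeR adjusted p = 0.00064). It was called in all 8 fits that left out 1 liver and at -1.33 without HKO replicates 1 and 2 (edgeR adjusted p = 0.0076). Plin2 lies on chr4:86656565-86670059, minus strand, and its estimated counts were not whole in 6 livers, so some of its reads were shared out by the authors' estimation.

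The Plin2 promoter is shown because the gene is a PPAR target and the called member with the most RNA. RefSeq windows of 250 bases before to 50 bases after the start were matched to 9 of the 10 genes (12 windows), and none held AGGTCANAGGTCA, the direct repeat read by PPAR with its partner RXR, on either strand, as did 0.0396% of 32851 windows. The nearest run in a member was in the Plin2 window, with 2 mismatches, and 3.86% of all windows held a run at least as near. It was looked for after the exact search had been seen. The first run below (chr4:86670242-86670309, minus strand, GRCm38.p6) has that stretch in capitals, 225 bases before the start. The second (chr4:86670058-86670093, minus strand) has in capitals CACGTG, which holds the core ACGTG on both strands, overlapping.
Plin2 upstream: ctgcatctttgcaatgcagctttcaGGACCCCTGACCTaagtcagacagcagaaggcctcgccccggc
Plin2 start: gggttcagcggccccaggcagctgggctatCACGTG
A single copy of the repeated unit, AGGTCA, was present in the windows of Plin2 and Plin5 (16.3% of all windows), and ACGTG, the core read by hypoxia-inducible factors, in those of Plin2 and Hilpda (19.6% of all windows).

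Plin3 encodes a perilipin found both free in the cytosol and on small droplets. It was at 67.8, 66.0, 51.7 and 57.4 CPM in WT and 42.2, 47.9, 42.9 and 50.2 CPM in HKO livers. The gap between genotypes was narrow, with WT replicate 3 just above HKO replicate 4. The means were 60.7 ± 7.55 and 45.8 ± 3.86 CPM, with a log2 fold change of -0.41 (SE 0.10, 95% interval -0.63 to -0.19, edgeR adjusted p = 0.0406). The call held in 1 of 8 fits that left out a liver, that without WT replicate 3, with adjusted p up to 0.144 (edgeR), and it was missed by limma-voom (adjusted p = 0.0553).

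Plin4 encodes a perilipin best known from fat and muscle, and it lies on chr17:56100589-56109782, minus strand, next to Plin5 (chr17:56111601-56117548, minus strand), 1818 bases away. It stood at 43.2, 90.6, 53.8 and 42.2 CPM in WT and 26.1, 10.7, 9.30 and 3.83 CPM in HKO livers. The genotypes did not overlap, but HKO livers spread widely, with replicate 1, the liver with the most Adipoq and Lep, the highest and replicate 4 the lowest. The log2 fold change was -2.19 (SE 0.58, 95% interval -3.58 to -0.80), and edgeR did not call it (adjusted p = 0.0963). DESeq2 and limma-voom did (adjusted p = 0.00483 and 0.0134), as did edgeR without HKO replicate 1, at -2.83 (adjusted p = 0.0342). Plin4 shares bases with Hdgfl2 on the other strand, and the sources used here do not say whether counting used strand.

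Plin5 encodes a perilipin of oxidative tissues that holds droplets near mitochondria. Its level was 20.8, 29.7, 26.9 and 27.3 CPM in WT and 28.2, 19.1, 19.5 and 18.2 CPM in HKO livers. The genotypes overlapped, since HKO replicate 1 was above WT replicates 1, 3 and 4, and the other HKO livers were below all WT livers. The log2 fold change was -0.30 (SE 0.15, 95% interval -0.64 to 0.03, edgeR adjusted p = 0.312), and -0.47 without HKO replicate 1 (edgeR adjusted p = 0.0615).

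Cidec, also called Fsp27, encodes the CIDE protein that drives growth of large droplets in fat cells and fatty hepatocytes. It was at 25.0, 54.7, 24.4 and 21.4 CPM in WT and 3.24, 1.16, 0.51 and 0.17 CPM in HKO livers, the last from 2 counts. Every WT liver was far above every HKO liver, WT replicate 2 stood apart as the highest, and HKO replicate 1 was the highest of its group. Cidec passed the low-count filter only through the WT livers, so this gap and the calls below describe it and add no support. The mean was 24.7-fold lower in HKO, with a log2 fold change of -4.60 (SE 0.70, 95% interval -6.26 to -2.93, edgeR adjusted p = 0.0176). The call held in 7 of 8 fits that left out a liver (without HKO replicate 2, edgeR adjusted p = 0.0544), and the difference was -5.66 without HKO replicate 1 (edgeR adjusted p = 0.0108) and -6.37 without HKO replicates 1 and 2 (edgeR adjusted p = 0.0242). Cidec lies on chr6:113424634-113435760, minus strand.

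Cidea encodes a CIDE protein best known from brown fat that is also made in fatty liver. It was at 1.24, 10.9, 0.65 and 6.18 CPM in WT livers, from 13 to 156 counts, and at 0.07, 0, 0.06 and 0 CPM in HKO livers, from at most 1 count each. All WT livers held Cidea and no HKO liver reached the floor of 3 counts, while the WT livers themselves fell into a higher pair (replicates 2 and 4) and a lower pair. Against that floor, taken in each HKO library, the mean was at least 22.1-fold lower in HKO, or at least 12.5-fold lower without WT replicate 2, and the lowest WT liver was 3.01 times the mean floor. The edgeR adjusted p was 0.0422. The call held in 3 of the 7 fits that left out a liver and kept the gene, was lost when any HKO liver was left out, and was lost with limma-voom (adjusted p = 0.0689) and with no filter on low counts (edgeR adjusted p = 0.0807). Ucp1, the defining brown fat marker, had no row, and Cidea shares bases with B430212C06Rik on the other strand.

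Cideb encodes the CIDE protein of the normal hepatocyte, which takes part in VLDL lipidation, and it was the most abundant CIDE transcript. It was at 135, 154, 141 and 146 CPM in WT and 128, 145, 121 and 136 CPM in HKO livers. The groups overlapped and each was tightly grouped. The log2 fold change was -0.12 (SE 0.08, 95% interval -0.30 to 0.06, edgeR adjusted p = 0.459). Its counts were not whole in 8 of 8 livers and it shares bases with Nop9 on the other strand, and how far this moved its level was not tested.

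G0s2 encodes the protein that binds and inhibits ATGL. It was at 56.1, 87.4, 83.1 and 56.7 CPM in WT and 37.8, 24.9, 39.4 and 26.9 CPM in HKO livers. Every WT liver was above every HKO liver, and within each genotype the livers fell into a higher and a lower pair. The means were 70.8 ± 16.8 and 32.3 ± 7.41 CPM, 2.19-fold lower in HKO, with a log2 fold change of -1.13 (SE 0.21, 95% interval -1.61 to -0.66, edgeR adjusted p = 0.0198). The call held in 6 of 8 fits that left out a liver, and was lost without WT replicate 2 or HKO replicate 4 (edgeR adjusted p = 0.0559 and 0.0579).

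Pnpla2 encodes ATGL, the lipase that G0S2 inhibits. It was at 40.3, 46.6, 37.3 and 29.3 CPM in WT and 37.1, 39.6, 33.1 and 36.4 CPM in HKO livers. The HKO livers lay within the WT range. The log2 fold change was -0.07 (SE 0.13, 95% interval -0.34 to 0.20, edgeR adjusted p = 0.826). With G0s2 lower and Pnpla2 not called, the ratio of G0s2 to Pnpla2 per length was 6.44 ± 1.21 in WT and 3.10 ± 0.89 in HKO livers (SD, n = 4 each), with no overlap. The lowest WT ratio was 4.82 and the highest HKO ratio 4.13.

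Hilpda encodes a hypoxia-inducible droplet protein that also inhibits ATGL, and it was the only member with a miR-33 seed match. It was at 1.07, 1.81, 1.44 and 1.12 CPM in WT and 1.69, 0.77, 1.58 and 1.19 CPM in HKO livers, from 10 to 29 counts. The groups overlapped throughout. The log2 fold change was -0.05 (SE 0.33, 95% interval -0.77 to 0.67, edgeR adjusted p = 0.959), so at this depth the interval still holds a change of more than 1.5-fold either way. Of its 2 promoter windows, which belong to 2 RefSeq starts, 1 holds the hypoxia core, shown in capitals, 43 bases before the downstream start and thus after the upstream one, whose own window does not hold it (chr6:29272553-29272617, plus strand, GRCm38.p6).
Hilpda promoter: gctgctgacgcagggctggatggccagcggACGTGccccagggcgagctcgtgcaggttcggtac

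**Figure D3:**
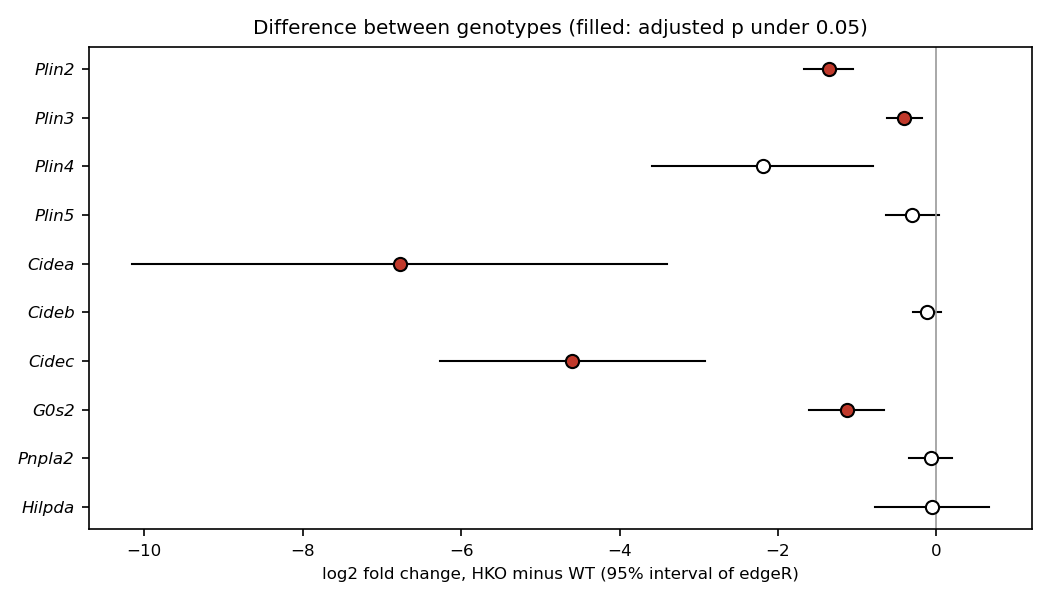
Log2 fold change of each gene, HKO minus WT (horizontal axis), with the 95% interval from edgeR as a line, and filled points for an adjusted p under 0.05. Cidec and Cidea lie furthest below 0 (-4.60 and -6.78). The Cidea value depends on edgeR's default prior count, since no HKO liver held more than 1 count. The intervals of Plin5, Cideb, Pnpla2 and Hilpda reach across 0.

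Levels of the 10 genes were compared with each other only as counts per kilobase of merged exons, scaled to the same total in each liver (as in TPM). On this scale the mean WT level was 642 for Plin2, 284 for Cideb, 241 for G0s2, 49.9 for Cidec, 47.0 for Plin3, 37.5 for Pnpla2, 37.0 for Plin5, 29.4 for Plin4, 12.3 for Cidea and 3.66 for Hilpda. Plin2 lay apart from Cideb and G0s2 from Cidec, and every other pair of neighbours in this order overlapped. In HKO livers the mean was 232 for Cideb and 221 for Plin2, which overlapped, then 95.6 for G0s2, 31.6 for Pnpla2, 31.5 for Plin3, 26.6 for Plin5, 5.75 for Plin4, 3.05 for Hilpda, 1.85 for Cidec and 0.07 for Cidea. Neighbours that did not overlap were Plin2 and G0s2, G0s2 and Pnpla2, Plin5 and Plin4, and Cidec and Cidea. By its mean, Cidec thus stood at rank 4 of the 10 genes in WT and at rank 9 in HKO livers. In WT its range overlapped that of Plin3, and it was above Plin3 in only 1 WT liver, replicate 2. In HKO livers its range overlapped that of Hilpda. The top of the HKO order depends on the length used, since with the longest transcript in place of merged exons Plin2 was at 339 and Cideb at 235.

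The makeup of the coat transcripts moved with genotype. Of the summed perilipin level per length, Plin2 held 84.8 ± 2.15% in WT and 77.6 ± 3.58% in HKO livers, with no overlap (SD, n = 4 each). The shares of Plin3 and Plin5 were 6.32 ± 0.77% and 5.03 ± 1.25% in WT and 11.1 ± 1.84% and 9.32 ± 2.15% in HKO livers, again with no overlap. Neither gene was higher in HKO livers as a level, and the summed perilipin level was 755 ± 144 in WT and 284 ± 27.9 in HKO. The share of Plin4 was 3.84 ± 1.08% in WT and 1.96 ± 1.52% in HKO livers and overlapped. Of the summed CIDE level, Cideb held 82.8 ± 6.89% in WT and 99.2 ± 0.87% in HKO livers, Cidec 13.9 ± 4.65% and 0.764 ± 0.842%, and Cidea 3.31 ± 3.02% and 0.033 ± 0.038%. None of these 3 shares overlapped, and nearly all the CIDE transcript of HKO livers was that of Cideb. The 3 shares are parts of the same sum, so the larger Cideb share restates the lower Cidec and Cidea. Cideb was not called as a level, and Cidea held at most 1 count in any HKO liver.

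**Figure D4:**
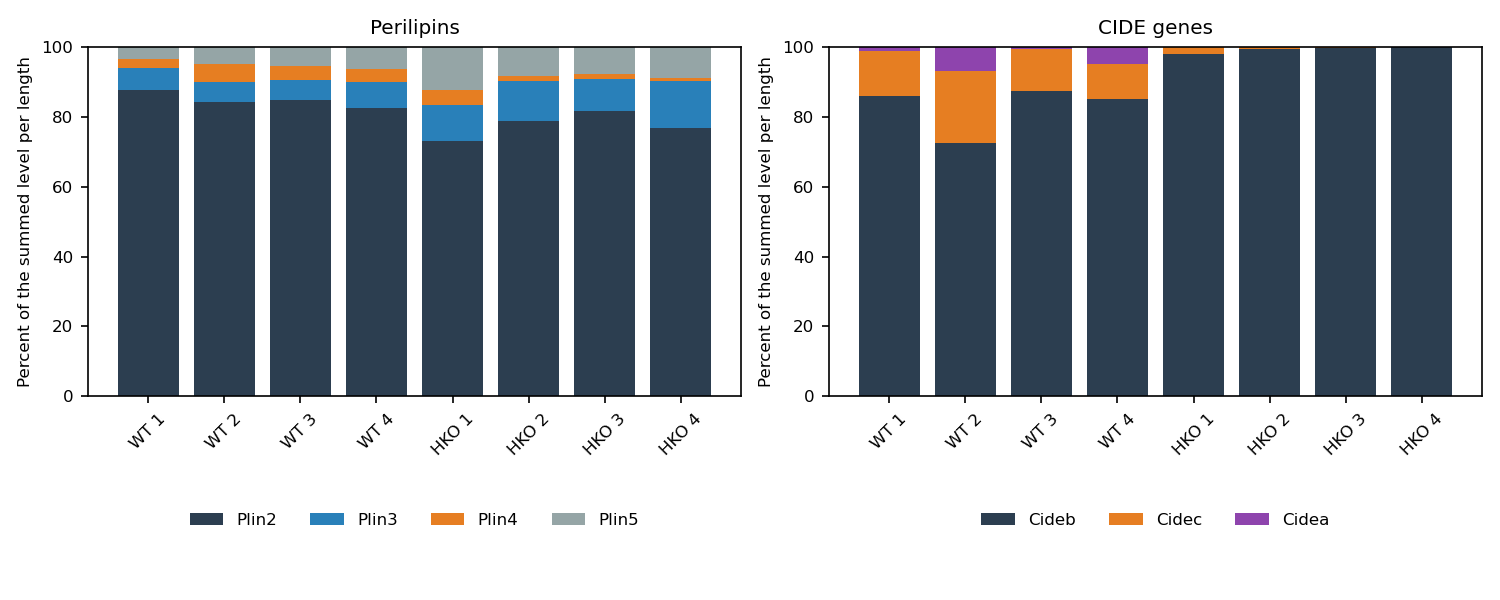
Percent of the summed level per length (vertical axes) held by each perilipin (left) and each CIDE gene (right) in each of the 8 livers. Plin2 holds 82.6 to 87.7% of the perilipin level in WT and 73.1 to 81.6% in HKO livers, and Cideb holds 72.6 to 87.4% of the CIDE level in WT and 97.9 to 99.9% in HKO livers.

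The members also differed in how much livers of one genotype varied. The SD of log2 CPM over the tested genes had a median of 0.18 in WT and 0.19 in HKO livers. Cideb was tighter than these (0.08 and 0.11), whereas Cidea varied by 1.80 in WT, Cidec by 1.48 in HKO and Plin4 by 1.11 in HKO livers. WT replicate 2 was the highest WT liver for 9 of the 10 genes, with Plin3 the exception. HKO replicate 1 was the highest HKO liver for Plin4, Plin5, Cidea, Cidec and Hilpda, and HKO replicate 4 the lowest for Plin2, Plin4, Plin5 and Cidec. The ranks of Cidea (at most 1 count in any HKO liver) and Hilpda are limited by depth.

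Genes with the pattern most like a called member were found by the mean absolute difference of gene-centred log2 CPM over the 8 livers, among 11878 genes with a mean of at least 1 CPM. Nearest to Plin2 were Lrrc39 (0.105), Psd4 (0.148) and Tlr12 (0.151). For Plin3 they were Lpcat3 (0.041), Impact (0.053) and Dnajc4 (0.054). For Cidec they were Osbpl3 (0.450), Themis (0.645) and Gsta1 (0.688), and for Cidea, far less closely, Mogat1 (0.834), Gprc5b (0.946) and Gm32468 (1.06). For G0s2 they were Kctd17 (0.148), Zfp449 (0.150) and Rassf4 (0.173). Because the measure spans both genotypes, genes with a like difference between genotypes come out as near. Lpcat3 encodes an enzyme that remodels membrane phospholipids, and Mogat1 encodes an enzyme that makes diglyceride. No lipid role is claimed here for the other nearest genes.

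Among 26 tested genes for other droplet proteins and droplet enzymes, 3 were lower in HKO livers, against 3.44% of all tested genes. They were Mgll, the monoglyceride lipase (log2 fold change -1.01, edgeR adjusted p = 0.0004), Hsd17b13, a hepatocyte droplet enzyme (-0.77, edgeR adjusted p = 0.0083), and Fitm2, which helps droplets bud from the endoplasmic reticulum (-0.61, edgeR adjusted p = 0.0484). Mgll and Hsd17b13 were called in 8 of 8 fits that left out a liver, and Fitm2 in 1 of 8, that without WT replicate 4. Mgll was at 273, 336, 248 and 264 CPM in WT and 135, 137, 148 and 135 CPM in HKO livers. The genotypes did not overlap for Mgll. The number called higher was 0, with 2 higher at an unadjusted p under 0.05 and 0 by DESeq2 or limma-voom. The median over the 26 was -0.12, beside 0.01 over all tested genes. Of those that did not pass, the 4 with the highest mean CPM, which is not a level per length, were Mettl7a1 (log2 fold change 0.05), Mettl7b (-0.10), Dgat2, which makes triglyceride (0.21), and Hsd17b11 (-0.27). Abhd5, the coactivator of ATGL, was named outside the rule for its role and differed by -0.18 (edgeR adjusted p = 0.362).

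PPAR target genes other than the members included genes of fatty acid uptake and oxidation. Of 25 tested, 14 were lower and 0 higher, against 3.44% and 1.71% of all tested genes. The list was chosen with earlier results of these data known, so this count is a description. Their median was -0.78, beside 0.01 over all tested genes, and 0 were higher at an unadjusted p under 0.05 or by DESeq2 or limma-voom. Among the 14 called, the 5 with the largest fitted changes were Mogat1 (log2 fold change -3.86, edgeR adjusted p = 0.0016), the fatty acid transporter Cd36 (-2.32, 0.0142), the hormone Fgf21 (-2.30, 0.0197), the acyl-CoA thioesterase Acot2 (-2.20, 0.0193) and the kinase Pdk4, which restrains pyruvate oxidation (-2.14, 0.0151). With 1 liver left out, Mogat1 and Cd36 stayed called in 8 of 8 fits. Acot2 was lost without WT replicate 1 or HKO replicate 4 (edgeR adjusted p up to 0.063). Fgf21 was lost without WT replicate 2 (edgeR adjusted p = 0.0812) and Pdk4 without HKO replicate 4 (edgeR adjusted p = 0.0579). Mogat1 held only 11, 12, 7 and 4 counts in HKO replicates 1 to 4, and Fgf21 13, 2, 3 and 6. Like Cidec, both passed the low-count filter only through the WT livers. Their calls are therefore given as description, not as support. A filter of 10 counts in every liver left 12 of the list lower. Cd36 was at 479, 537, 393 and 356 CPM in WT and 110, 116, 39.7 and 88.2 CPM in HKO livers. Its lowest HKO liver was replicate 3, not the replicate 4 that was lowest for Cidec. Any link between Cd36 and Cidec was not tested. Cyp4a14, a fatty acid hydroxylase gene, was not called at -2.51 (edgeR adjusted p = 0.272, and -2.86 to -2.11 with 1 liver left out), and was named after its value was seen. Angptl4 and Lpl, both textbook PPAR targets, were named after their values were seen and differed by -0.07 and -0.08. Without HKO replicates 1 and 2, 9 of the list were called lower.

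Among 15 tested transcription factors and coactivators known to act on droplet genes, 2 were lower, against 3.44% of all tested genes, with a median of 0.05. Pparg, which drives droplet genes in fat and fatty liver, was at 21.99, 20.8, 16.3 and 19.4 CPM in WT and 9.38, 11.04, 7.44 and 4.94 CPM in HKO livers. The groups did not overlap, and the log2 fold change was -1.25 (SE 0.21, edgeR adjusted p = 0.0080). HKO replicate 4 was the lowest, as for Cidec and Plin4, but HKO replicate 2 was the highest for Pparg and HKO replicate 1 for Cidec and Plin4. Any part of Pparg in the droplet gene differences was not tested. Ppara, the main fatty acid sensor of hepatocytes, differed by -0.33 (edgeR adjusted p = 0.0409). Pparg was called in 8 of 8 fits that left out a liver and Ppara in 0 of 8 (adjusted p 0.0526 to 0.132, edgeR). The number called higher was 0, with 2 at an unadjusted p under 0.05 and 0 by DESeq2 or limma-voom. Of those that did not pass, the 4 with the highest mean CPM were Cebpa (log2 fold change 0.22), Rxra (0.21), Epas1 (0.17) and Creb3l3 (0.00). Of 13 tested hypoxia-inducible genes, given beside Hilpda, 1 was lower, against 3.44% of all tested genes, and the median was -0.07. It was Ldha, which encodes a lactate dehydrogenase subunit (-0.35, edgeR adjusted p = 0.0312). Ldha was called in 3 of 8 fits that left out a liver, and not without WT replicates 1, 2 or 4 or HKO replicates 2 or 4 (adjusted p up to 0.129, edgeR). The number called higher was 0, with 1 at an unadjusted p under 0.05 and 0 by DESeq2 or limma-voom.

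**Figure D5:**
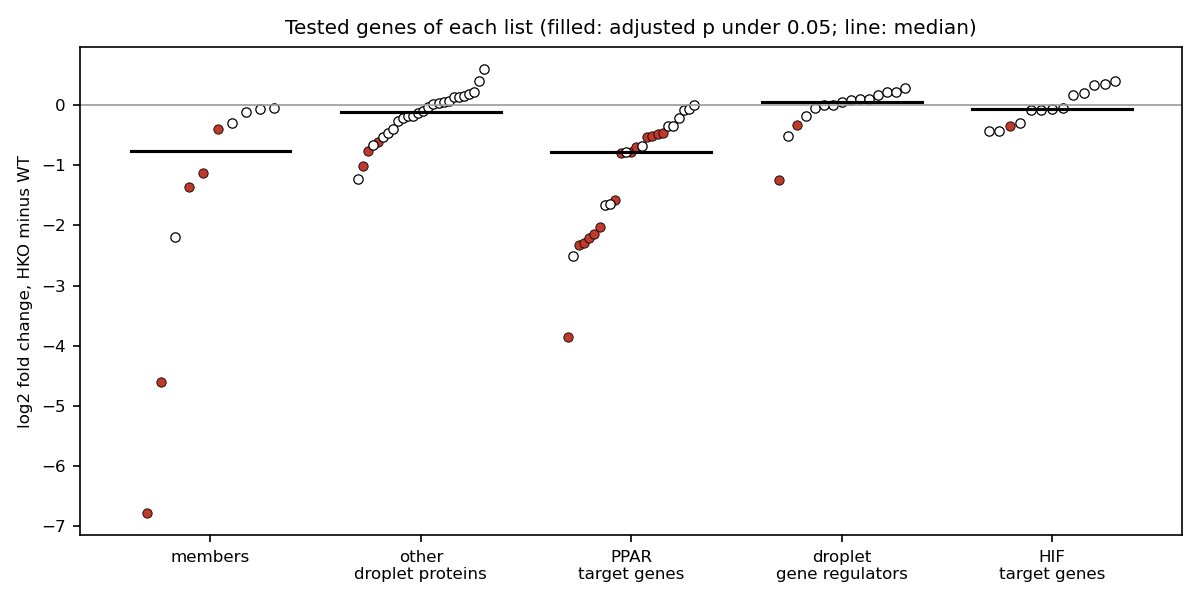
Log2 fold change, HKO minus WT (vertical axis), of the tested genes of 5 lists (horizontal axis), sorted within each list, with filled points for an adjusted p under 0.05 and a line at the median. The medians are -0.77 for the 10 members, -0.12 for other droplet proteins, -0.78 for PPAR targets, 0.05 for regulators and -0.07 for hypoxia-inducible genes.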

How the data were processed

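Estimated counts per gene were deposited by the authors, who aligned reads with STAR and quantified genes in Partek (versions not given in the sources used here). The values are not normalized, and 80.5% of the values above 0 were whole. Genome build and annotation are not named, and coordinates matched GRCm38. Because a small RNA kit is named beside removal of rRNA, the type of library is uncertain. Descriptions of the WT samples repeat one mouse number, but titles and columns differ, so each was taken as a separate mouse. Counts were rounded and tested with edgeR 4.0.16 in R 4.3.3 (TMM scaling, filterByExpr with a minimum count of 10, robust quasi-likelihood test with the default prior count, Benjamini-Hochberg adjustment over 12395 genes, threshold 0.05), fitted on all genes and tested on simulated data. DESeq2 1.42.0, limma 3.58.1 (voom), other scalings and filters, a block for the replicate number, a minimum fold of 1.5 and leaving out each liver were alternatives. CPM used TMM-scaled library sizes, and log2 CPM used a prior count of 2. Lengths and 3′UTRs came from GENCODE, promoters and miR-33 from RefSeq, both on GRCm38.

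The members and gene lists were chosen with earlier results of these data known. Named genes were all members, for other lists the called genes (at most the 5 with the largest change in each direction) and, for droplet proteins and regulators, the 4 of highest mean CPM not called, and the 3 nearest genes to each called member. Hypoxia-inducible and PPAR lists are textbook targets, but they too were chosen with those results known. Counts set beside the share of all tested genes therefore describe the members and lists and are not independent support. Lymphocyte markers were below the filter, at a sum of 0.579 to 2.83 CPM.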

Additional observations from a re-analysis of the deposited data

Results flagged for a closer look

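In 36 groups of 4 livers (the CPM of the members and their shares), 3 had an extreme liver whose gap to the next exceeded Dixon's critical value for 4 samples, where chance gives about 2. Plin5 stood at 28.2 CPM in HKO replicate 1, against 18.2 to 19.5 CPM in the other HKO livers. This liver also held the most Adipoq and Lep, though not the highest sum of the 6 listed adipocyte markers, and their part in its Plin5 was not tested. Cidec stood at 54.7 CPM in WT replicate 2, while the rest of the WT group lay between 21.4 and 25.0 CPM, and the Cidec difference remained called without it (log2 fold change -4.18, edgeR adjusted p = 0.0399). In the same liver Cideb held 72.6% of the summed CIDE level, against 85.2 to 87.4% in the other WT livers.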

How the results depend on the processing

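Of the alternative fits of single members, 139 kept their direction and side of the threshold, 21 lost the call, 3 gained it (Plin4) and 4 changed sign, with the cause not tested. Those 4 were Pnpla2 without WT replicate 2 (0.042) and Hilpda without WT replicate 2 (0.11), without HKO replicate 2 (0.13) and without HKO replicates 1 and 2 together (0.03), an alternative chosen after seeing the data, and neither gene was called in any fit. With 1 liver left out the log2 fold change ranged from -0.18 to 0.042 for Pnpla2 and from -0.19 to 0.13 for Hilpda, and lower PPAR targets from 10 to 15. Lower members numbered 3 when 10 counts were required in every liver, which removes Cidea and Cidec, 2 to 5 with 1 liver left out, and 2 without HKO replicates 1 and 2, where lower PPAR targets numbered 9. Lower regulators numbered 1 with no filter, with the replicate block, with a fold above 1.5 added, without HKO replicates 1 and 2, and also in each fit with 1 liver left out (range 1 to 1). Lower hypoxia-inducible genes numbered 2 with DESeq2, 0 with the replicate block or the fold limit, and 0 to 1 with 1 liver left out. With the longest transcript, Plin2 stood at 974 in WT and 339 in HKO livers and Plin3 at 39.8 and 27.0. The 8-base seed match was found in 0 members.

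The replicate numbers did not pair the livers. Correlations of same-numbered livers were -0.06, 0.01, -0.08 and -0.15, and no liver correlated best with its own number. With the replicate block, 4 members were lower, with Plin3 the one not called (adjusted p = 0.0733). Other scalings moved the median over all genes by at most 0.09 on the log2 scale. Depth limits Hilpda (10 to 29 counts) and Cidea in HKO livers (at most 1 count).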
